A study of Mus musculus with 6 samples.

Results

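The Skint genes (selection and upkeep of intraepithelial T cells) encode membrane proteins of the butyrophilin family that are made by epithelial cells of the thymus and the epidermis. They were followed here in cultured mouse keratinocytes that lacked the zinc finger factor Ovol1 alone or both Ovol1 and Ovol2. The genes chosen were Skint1 to Skint10, taken by gene symbol, and the symbols of 6 of these 10 were found on a probe set of the array: Skint2, Skint3, Skint4, Skint7, Skint9 and Skint10. They are 6 of 19938 genes tested. Skint1, Skint5, Skint6 and Skint8 carried no probe set with their symbol in the annotation used and were not analysed here. Where a gene has several probe sets the brightest was to be taken, but each of the 6 genes had 1, so brightness decided nothing and the members were in effect chosen by name alone; the only measured value in the rule was mean brightness. The family was put forward with earlier results of these arrays known, among them the rise of Skint3, so that rise is no independent finding.

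Skint proteins carry immunoglobulin-like domains on a stem of several membrane-spanning segments. Skint1 is known for its part in the thymus, where its display on epithelial cells is needed for the maturation of the gamma-delta T cells that later settle in mouse epidermis as dendritic epidermal T cells. In the epidermis, Skint genes are known to be expressed by keratinocytes, and the roles of most of the other members are less well defined. The genes lie side by side in a single cluster and resemble each other closely, so a probe set named for 1 member may also bind RNA of another. Such cross-hybridisation was not tested.

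The study compared 3 genotypes with 2 arrays each, and every array held RNA of 2 pooled mice. Keratinocytes came from the skin of C57BL/6 embryos (E18.5), were grown for 2 to 5 days, received calcium, the usual trigger of differentiation in culture, and were kept for a further 3 to 5 days. Control arrays were made from Ovol2flox/+ animals that carried either Ovol1+/- or the K14-Cre transgene, so a control animal could itself have lost 1 copy of an Ovol gene. The Ovol1 KO arrays were Ovol1-/-, and the double knockout (DKO) arrays were Ovol1-/- with Ovol2flox/- and K14-Cre, which acts in basal keratinocytes. All arrays carry the label female and all cultures received calcium. What was compared is thus genotype in calcium-treated cultures, with no culture before calcium.

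A few facts of the series bear on every value below. The deposited intensities were raised by 16, converted to log2 and quantile-normalized, and all levels and differences below are on this log2(intensity + 16) scale, which understates the change of dim genes. The basal keratins Krt5 and Krt14 lay between 13.61 and 13.94 on all 6 arrays. The probe sets of Ovol1 (9.85 to 10.59) and Ovol2 (8.12 to 9.0) were not lower in the groups that lack these genes, with Ovol1 means of 10.06, 10.38 and 10.59 in control, Ovol1 KO and DKO. Their place relative to the deleted parts was not known, so they check no label. Xist, which is expressed from an inactive X chromosome in female cells, lay at 4.59 to 4.71 on both control arrays and Ovol1 KO 1 but at 11.97 to 12.26 on Ovol1 KO 2 and both DKO arrays, against the uniform label. Kdm5d, a gene of the Y chromosome, lay at 14.7 on the 3 arrays with low Xist and at 7.5 to 7.64 on the other 3. Control and DKO therefore share no array of like Xist or Kdm5d level, so that in this comparison the apparent sex of the cells and the genotype cannot be told apart by matching arrays.

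Loss of both Ovol genes went with higher signal of Skint3 and Skint4. Of the 6 measured members these 2 rose in DKO against control, 0 fell and 4 did not pass, where 0.943% of all genes tested were called higher, 2.26% lower and 3.2% in either direction. For 3 of the 6, Skint3, Skint4 and Skint10, both DKO arrays lay above both control arrays, against 23.1% of all genes. The median log2 fold change of the 6 genes was 0.31, beside 0.0237 over all genes. The plot of levels by array shows each of these genes.

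**Figure D1:**
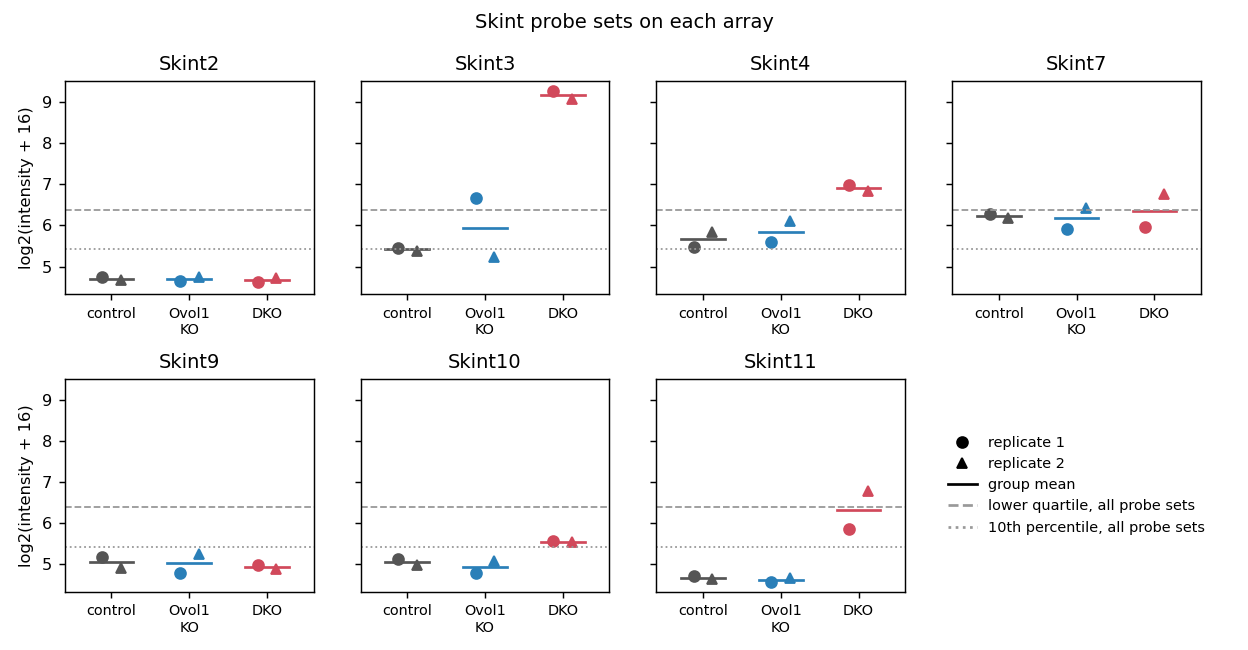
Level of each measured Skint gene on the 6 arrays, as log2(intensity + 16) after quantile normalization (y axis), by genotype (x axis). Circles are replicate 1, triangles replicate 2 and short bars the group means, and the dashed and dotted lines mark the lower quartile (6.38) and the 10th percentile (5.42) of all probe sets. Skint3 stands at 9.27 and 9.06 in DKO and Skint4 at 6.97 and 6.84, above every control and Ovol1 KO array, while Skint2 and Skint9 lie below the dotted line on all 6 arrays.

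Skint3 had the widest range of the family, 4.04 log2 units over the 6 arrays. It lay at 5.46 and 5.38 in control, at 6.66 and 5.23 in Ovol1 KO, and at 9.27 and 9.06 in DKO. In the deposited intensities these were 24.73 and 25.22, then 92.96 and 19.59, then 618.6 and 497. Both DKO arrays were high, both control arrays and Ovol1 KO 2 were near the bottom of the scale, and Ovol1 KO 1 lay between. The group means were 5.42 ± 0.054 (SD, n = 2) in control and 9.16 ± 0.15 (SD, n = 2) in DKO. The log2 fold change was 3.74 (SE 0.41, 95% interval 2.76 to 4.72, limma adjusted p = 0.00698), which is 13.4-fold on the offset scale and far larger than the spread within either group. As the control signal is close to the offset and no detection call separates it from background, the size depends on the offset.

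Skint4, the neighbour of Skint3 on the chromosome, rose less. It lay at 5.48 and 5.84 in control, 5.59 and 6.11 in Ovol1 KO, and 6.97 and 6.84 in DKO. Both DKO arrays were above the other 4, and control and Ovol1 KO arrays overlapped. The group means were 5.66 ± 0.25 (SD, n = 2) in control and 6.90 ± 0.091 in DKO, and the log2 fold change was 1.24 (SE 0.22, 95% interval 0.73 to 1.75, limma adjusted p = 0.0325), or 2.36-fold on the offset scale. Whether the Skint4 probe set picks up some Skint3 RNA was not tested.

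The calls of both genes were made from few arrays. Skint3 kept its direction in every fit but missed the threshold when DKO 1 was left out (log2 fold change 3.64, limma adjusted p = 0.0548). Skint4 lost its call without control 1 (1.06, adjusted p = 0.113), DKO 1 (1.18, adjusted p = 0.17) or DKO 2 (1.30, adjusted p = 0.116), and with the Xist level as a covariate (0.71, adjusted p = 0.751).

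The DNA in front of the start sites is closely alike in some pairs of these genes and not in most. The sequences are RefSeq promoter windows of build GRCm38.p6, each holding 250 bases before and 50 after an annotated start, and all 10 members have one. Skint3 (chr4:112231995-112232294, plus strand) and the downstream one of the annotated starts of Skint4 (chr4:112081220-112081519, plus strand) are shown because they belong to the 2 members that rose. Over 241 aligned bases 189 were identical (78.4%), and the capitals mark their longest shared run, of 18 bases. The other annotated start of Skint4 aligned with the Skint3 window over 25 bases, 20 of them identical.
Skint3: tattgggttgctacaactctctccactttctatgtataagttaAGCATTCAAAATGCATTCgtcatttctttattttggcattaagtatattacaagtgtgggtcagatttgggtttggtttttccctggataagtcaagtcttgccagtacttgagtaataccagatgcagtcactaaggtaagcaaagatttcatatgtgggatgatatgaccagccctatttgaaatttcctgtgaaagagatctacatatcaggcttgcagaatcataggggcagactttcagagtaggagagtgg
Skint4: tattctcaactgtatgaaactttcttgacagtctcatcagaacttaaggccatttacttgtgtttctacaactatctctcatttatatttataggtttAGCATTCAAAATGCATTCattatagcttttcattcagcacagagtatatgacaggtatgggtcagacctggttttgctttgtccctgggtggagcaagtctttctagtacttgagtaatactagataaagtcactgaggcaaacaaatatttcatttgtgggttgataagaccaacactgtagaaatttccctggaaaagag
The Skint3 window was 80.3% identical to that of Skint2 over 122 aligned bases, and Skint2 did not pass in any comparison. The Skint3 window aligned with those of Skint6 (147 bases, 79.6% identical), Skint5 (141, 78.7%) and Skint1 (134, 68.7%), which have no probe set here. With the windows of Skint8, Skint10, Skint9, Skint7 and Skint11 the Skint3 window aligned over 27, 13, 27, 19 and 13 bases.

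Skint10 moved in the same direction by an amount that was small on the offset scale and did not pass the test. Its levels were 5.13 and 4.99 in control, 4.78 and 5.09 in Ovol1 KO, and 5.56 and 5.54 in DKO. The DKO arrays lay above the other 4 by a narrow margin, with deposited intensities of 30.17 and 32.89 against 15.07 to 16.4. Those 4 were below the 10th percentile of all probe sets, where no detection call tells signal from background. The log2 fold change in DKO against control was 0.49 (SE 0.15, 95% interval 0.14 to 0.84, limma adjusted p = 0.166). With the values as deposited, without quantile normalization, it was 0.58 (adjusted p = 0.0428).

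Skint7, Skint9 and Skint2 did not pass, and in each of them the DKO and control arrays overlapped. Skint7 lay at 6.28 and 6.17 in control, 5.92 and 6.43 in Ovol1 KO, and 5.95 and 6.77 in DKO, so that its 2 DKO arrays held its second lowest and its highest value. Its log2 fold change was 0.14 (95% interval -0.55 to 0.83, limma adjusted p = 0.919), an interval that leaves room for changes of either sign. Skint9 lay between 4.8 and 5.26 on the 6 arrays, with a log2 fold change of -0.10 (95% interval -0.54 to 0.33, adjusted p = 0.90). Skint2 lay between 4.62 and 4.75, with a log2 fold change of -0.04 (95% interval -0.31 to 0.23, adjusted p = 0.944). Skint2 and Skint9 were below the array's 10th percentile of all probe sets on all 6 arrays, where no detection call tells signal from background, and their narrow intervals do not show that their RNA stayed the same.

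**Figure D2:**
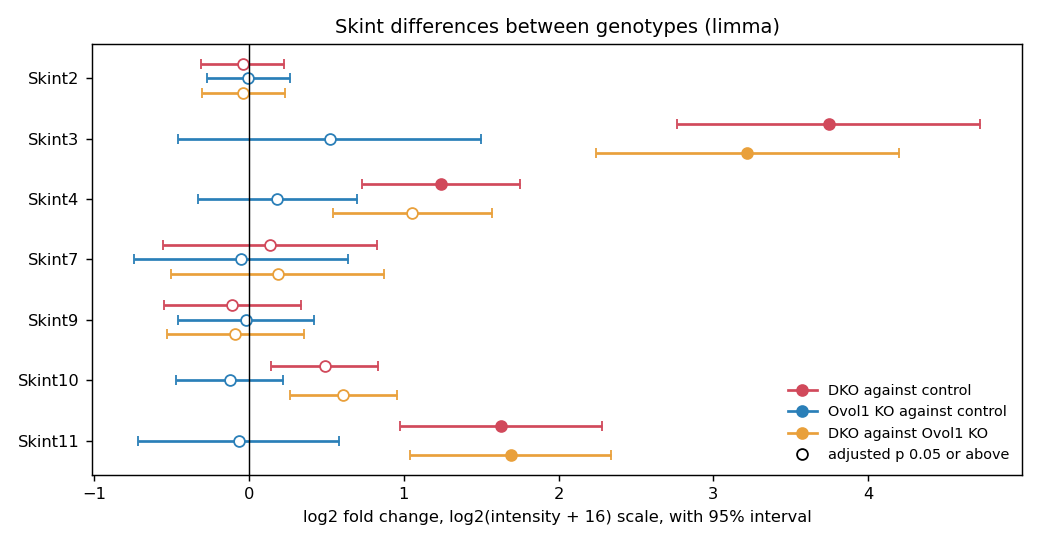
Log2 fold change (x axis, log2(intensity + 16) scale) of each measured Skint gene (y axis) in the 3 comparisons, with its 95% interval from limma. Filled points have an adjusted p below 0.05 and open points do not. Skint3 (3.74 and 3.22) and Skint11 (1.63 and 1.69) are filled in both comparisons that involve DKO, Skint4 only against control, and no point is filled for Ovol1 KO against control.

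Loss of Ovol1 alone gave no called difference in the family. In Ovol1 KO against control 0 of 6 members passed in limma, as for all genes (0% called), and 0 of 6 had an unadjusted p below 0.05, beside 162 of 19938 genes. Groups overlapped for all 6 members, while 5.8% of all genes had both Ovol1 KO arrays above both control arrays and 18.3% had both below, and the 6 log2 fold changes had a median of -0.01 against -0.0569 over all genes. Skint3 had the widest interval, with a log2 fold change of 0.52 (SE 0.41, 95% interval -0.46 to 1.5, limma adjusted p = 1). Its Ovol1 KO arrays differed by more than its control arrays, with an SD of 1.0 against 0.054. Ovol1 KO 1, which has the low Xist level of the controls, lay 1.24 above their mean, and without this array the difference was -0.19. Skint4 stood at 0.18 (95% interval -0.33 to 0.70), and the other 4 lay between -0.12 and -0.0039.

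The third comparison, DKO against Ovol1 KO, holds the added loss of Ovol2 but not that alone. The DKO animals also carried K14-Cre, which is not listed for Ovol1 KO, and Ovol1 KO 1 differs from the DKO arrays in Xist level. These parts cannot be told apart here. The third comparison shares its DKO arrays with the first, so the 2 are not independent. Of 6 members 1 rose, Skint3, 0 fell and 5 did not pass, with 0.657% of all genes called higher, 1.49% lower and 2.15% in either direction. Both DKO arrays lay above both Ovol1 KO arrays for the same 3 genes as against control, beside 26.1% of all genes. Skint3 rose by 3.22 (SE 0.41, 95% interval 2.24 to 4.2, limma adjusted p = 0.014). Skint4 had a log2 fold change of 1.06 (95% interval 0.54 to 1.57, adjusted p = 0.0678) and Skint10 one of 0.61 (95% interval 0.27 to 0.96, adjusted p = 0.11). Skint7, Skint9 and Skint2 stood at 0.19, -0.09 and -0.04.

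This comparison allows arrays of like Xist level to be set side by side, without a test. Against Ovol1 KO 2 alone, the DKO mean was 3.93 higher for Skint3, 0.79 higher for Skint4 and 0.45 higher for Skint10. Over all arrays these differences were 3.22 for Skint3, 1.06 for Skint4 and 0.61 for Skint10. Ovol1 KO 2 is a single array and held the lowest Skint3 value of all arrays (5.23). The part of apparent sex in these values was not tested. Skint3 lost its call when DKO 1 (3.11, limma adjusted p = 0.0926) or DKO 2 (3.33, adjusted p = 0.0748) was left out, and Skint4 gained one without control 1 (adjusted p = 0.0384) or control 2 (adjusted p = 0.0362), which left its difference of 1.06 as it was.

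**Figure D3:**
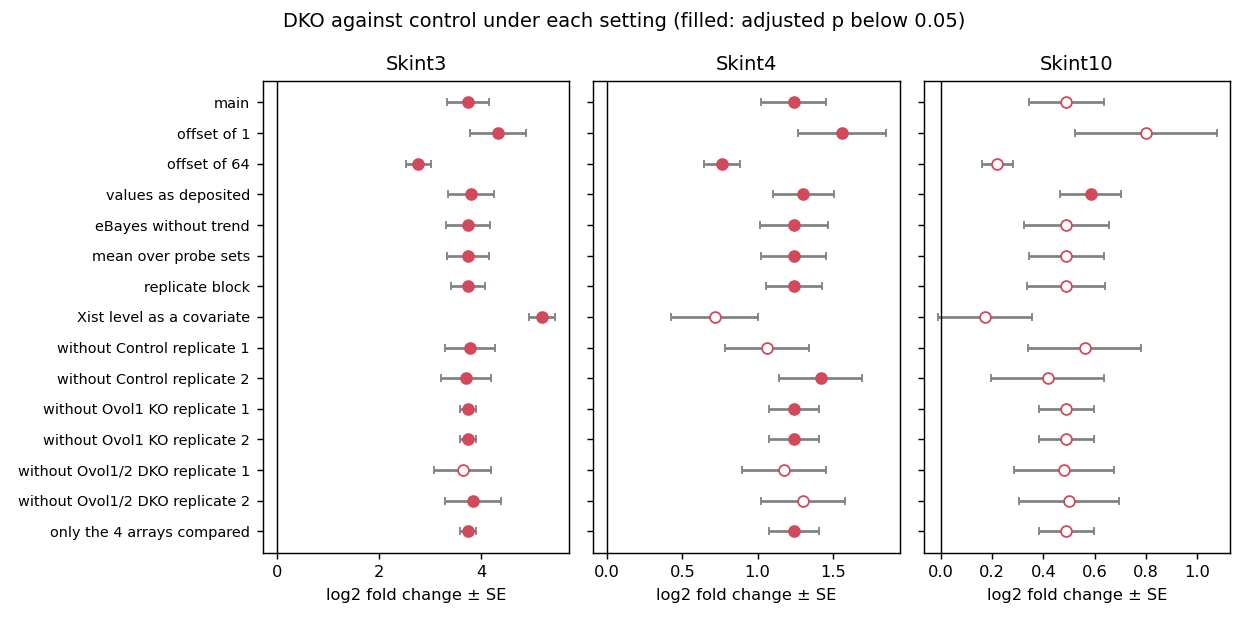
Log2 fold change ± SE (x axes) of Skint3, Skint4 and Skint10 in DKO against control under each setting of the analysis (y axis). Filled points have an adjusted p below 0.05. Every point is above 0, Skint3 runs from 2.77 to 5.20, and the Xist covariate gives the highest Skint3 value and the lowest values of Skint4 (0.71) and Skint10 (0.17).

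Skint11, a relative outside the 10 genes chosen, was also called in DKO. It lay at 4.72 and 4.64 in control, 4.57 and 4.66 in Ovol1 KO, and 5.85 and 6.77 in DKO. Both DKO arrays were above the other 4 but spread widely, with an SD of 0.65 (n = 2). The other 4 were below the 10th percentile of all probe sets, where no detection call tells signal from background. The size of the difference therefore depends on the offset, and with an offset of 1 it was 2.58 in DKO against control. Skint11 rose by 1.63 in DKO against control (SE 0.27, limma adjusted p = 0.0295) and by 1.69 against Ovol1 KO (SE 0.27, adjusted p = 0.0323). Against control it missed the threshold at the same fold change of 1.63 without either Ovol1 KO array (adjusted p = 0.0639 and 0.0619) and from the 4 compared arrays alone (0.0645). It also missed it with the Xist covariate (fold change 1.52 on the log2 scale, adjusted p = 0.691) and, at a smaller fold change of 0.81, with an offset of 64 (0.0511). Against Ovol1 KO it missed it without Ovol1 KO 1 (1.65, adjusted p = 0.242) or Ovol1 KO 2 (1.74, adjusted p = 0.106), with the Xist covariate (1.64, adjusted p = 0.277) and with an offset of 64 (0.83, adjusted p = 0.0595).

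Skint10 and Skint11 have closely related promoter windows and are shown since the first did not pass and the second did. The Skint10 window (chr4:112774812-112775111, minus strand) and the Skint11 window (chr4:114163134-114163433, plus strand) were identical at 210 of 244 aligned bases (86.1%), and the capitals mark their longest shared run, of 20 bases.
Skint10: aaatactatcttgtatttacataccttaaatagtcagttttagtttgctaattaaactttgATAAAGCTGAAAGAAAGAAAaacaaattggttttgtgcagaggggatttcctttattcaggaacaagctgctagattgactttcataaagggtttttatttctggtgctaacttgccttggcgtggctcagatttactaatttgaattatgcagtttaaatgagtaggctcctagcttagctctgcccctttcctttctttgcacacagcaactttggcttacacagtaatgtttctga
Skint11: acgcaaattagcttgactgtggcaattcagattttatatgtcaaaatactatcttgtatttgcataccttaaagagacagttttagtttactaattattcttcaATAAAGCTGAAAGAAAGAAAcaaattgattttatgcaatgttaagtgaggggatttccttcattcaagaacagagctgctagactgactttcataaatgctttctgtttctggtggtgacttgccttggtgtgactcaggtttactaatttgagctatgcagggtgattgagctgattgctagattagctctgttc
The Skint9 window was nearly as close to that of Skint10, with 85.0% identity over 200 aligned bases, and Skint9 was below the 10th percentile on every array.

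Short motifs were searched on both strands of the 12 Skint windows and of all 32851 windows in the table. The Ovol core motif CCGTTA was in 0 of the 12, beside 2.76% of all windows. The Zeb-type E-box CACCTG was in 3, those of Skint1, Skint5 and Skint6, which have no probe set here, beside 20.2% of all windows. TGANTCA, with any base at N and so looser than the AP-1 site, was in the Skint11 window alone, beside 7.81%. The Grhl site AACCGGTT was in 0, beside 0.146%. TATAAA was in 8 of the 12, beside 13.6% of all windows, and closely related windows are not independent observations. A match is only a run of letters, and its absence concerns these 300 bases alone.

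By position, the raised genes were not all neighbours. RefSeq places 11 Skint genes on mouse chromosome 4 in the order Skint8, Skint7, Skint1, Skint4, Skint3, Skint9, Skint2, Skint10, Skint6, Skint5, Skint11, with no other named protein-coding gene between them. Skint4 and Skint3 are adjacent, Skint9 and Skint2, which did not pass, come next, and Skint11 closes the row. Of the 5 named genes on each side, all 10 were tested and 1 was called in DKO against control. Over all genes tested 3.2% were called in either direction and 2.26% lower. The called flanking gene was Trabd2b, next to Skint11, which encodes a membrane metalloprotease that cleaves Wnt proteins. Trabd2b lay at 9.34 and 9.82 in control, 9.17 and 9.67 in Ovol1 KO, and 8.0 and 8.03 in DKO, and fell by 1.57 (limma adjusted p = 0.0257). This call was not examined under the other settings or with arrays left out. On the other side Slc5a9, a sodium-dependent sugar transporter gene, had a log2 fold change of 0.80 (adjusted p = 0.247).

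**Figure D4:**
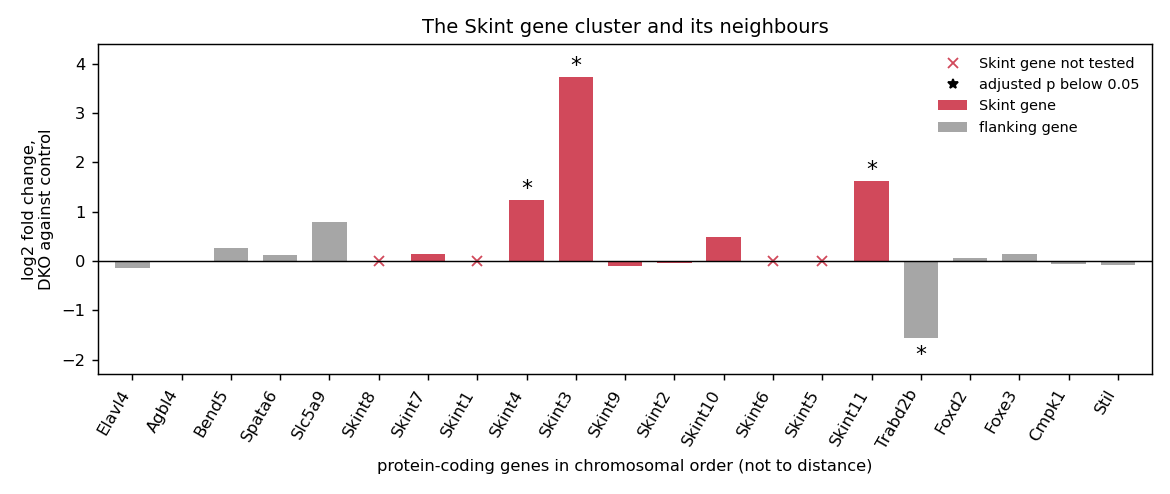
Log2 fold change in DKO against control (y axis) of the Skint genes (red) and the 5 named protein-coding genes on each side (grey), in chromosomal order without regard to distance (x axis). Asterisks mark an adjusted p below 0.05 and crosses the Skint genes that were not tested. Skint4 (1.24), Skint3 (3.74) and Skint11 (1.63) rise inside the cluster and Trabd2b (-1.57) falls beside it.

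Predicted genes and genes with clone-type names were left out of the search for patterns like that of Skint3. Among the rest, the closest genes were found by the mean absolute difference over the 6 arrays after each gene was centred on its own mean. They were Il22ra2, a soluble receptor that binds interleukin 22 (0.35 log2 units away), Ackr4, an atypical chemokine receptor (0.369), the cytokine gene Il33 (0.412), the stromelysin gene Mmp3 (0.413), the cadherin-related gene Cdhr1 (0.426) and Pla2g2f, a secreted phospholipase of the epidermis (0.431). All 6 were called higher in DKO against control, with log2 fold changes from 2.69 to 3.98. As Skint3 was followed for this pattern, that follows from the choice. Mmp3 and Pla2g2f were, like Skint3, more than 1 log2 unit higher on Ovol1 KO 1 than on Ovol1 KO 2, at 7.82 against 6.78 for Mmp3 and 9.67 against 8.60 for Pla2g2f. Pla2g2f also differed between control 1 and control 2, at 9.32 and 7.84. On these control arrays Mmp3 lay at 6.94 and 7.27 and Skint3 at 5.46 and 5.38. Within the family Skint4 was 1.159 away with 282 genes closer, and Skint9 was 1.596 away with 14414 genes closer, since the measure includes the size of a change. These counts run over all genes tested, predicted ones included.

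**Figure D5:**
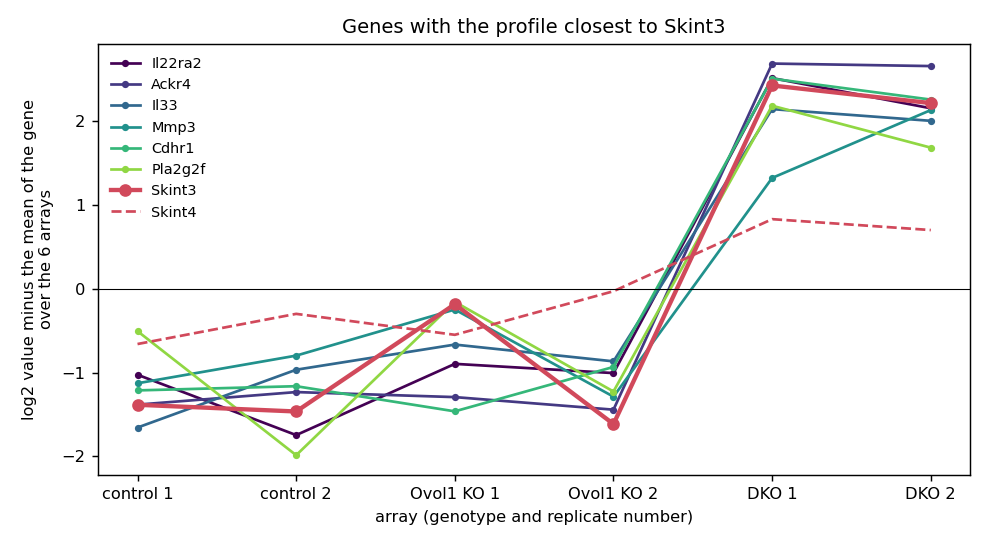
Log2 values of Skint3 (thick red), Skint4 (dashed red) and the 6 genes closest to Skint3, each minus its own mean over the 6 arrays (y axis), by array (x axis). Predicted genes were left out of the search. The lines of Skint3 and its 6 closest genes lie below 0 on all control and Ovol1 KO arrays and above 1 on both DKO arrays, and Skint4 follows with a smaller rise.

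Relatives of the chosen genes in the butyrophilin family were listed too, Btn and Btnl genes with others such as Ermap and Skint11. Of 10 measured relatives 1 rose in DKO against control, 0 fell and 9 missed the threshold. The 1 was Skint11, already described, so no butyrophilin gene outside the Skint genes was called in this list. Over all genes 0.943% were called higher and 3.2% in either direction. Of the 10, 4 had an unadjusted p below 0.05, beside 2888 of 19938 genes, and the list's median log2 fold change was -0.08 beside 0.0237 over all genes. The list was written with earlier results of these arrays known, as were those that follow, and 0 members of any of them passed in Ovol1 KO against control by limma, with at most 1 gene per list at an unadjusted p below 0.05.

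Among signals by which keratinocytes address epidermal T cells, 2 of 25 measured genes rose in DKO against control, 1 fell and 22 missed the threshold, where 0.943% of all genes were called higher and 2.26% lower. Of the 25, 9 had an unadjusted p below 0.05, beside 2888 of all 19938 genes. Their median was 0.06. Il33, an alarmin cytokine of barrier cells, lay at 8.29 and 8.98 in control, 9.28 and 9.08 in Ovol1 KO, and 12.09 and 11.95 in DKO, and rose by 3.38 (SE 0.25, limma adjusted p = 0.00173). Il18, another cytokine of the interleukin 1 family, lay at 8.97 and 9.23, then 9.28 and 10.02, then 10.64 and 10.74, and rose by 1.59 (SE 0.27, adjusted p = 0.0301). Il1a, an interleukin 1 ligand, lay at 12.62 and 11.84, then 12.39 and 11.06, then 7.33 and 9.38, and fell by 3.87 (SE 0.70, adjusted p = 0.0376). Il33 was also called against Ovol1 KO, at 2.84 (adjusted p = 0.00353). Il18 lost its call without control 1, DKO 1 or DKO 2, and Il1a without DKO 1 or either Ovol1 KO array. Among the ligands of the activating receptor NKG2D, 2 of 9 listed genes were measured and neither passed, with log2 fold changes of -0.41 for H60b and -0.15 for Raet1d.

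Skint genes are known as genes of differentiating epidermis, and other suprabasal genes were therefore examined. Of 17 measured suprabasal genes 5 rose in DKO against control, 0 fell and 12 missed the threshold. Over all genes tested 0.943% were called higher and 2.26% lower. The median log2 fold change of the list was 0.93, beside 0.0237 over all genes. The transcription factor gene Pou2f3 rose by 4.72, the keratin genes Krt1 and Krt10 by 4.14 each, Lor, which encodes loricrin, by 1.95 and the transglutaminase gene Tgm3 by 2.68. With DKO 1 or DKO 2 left out, Krt1 stood at 2.995 and 5.295 and Tgm3 at 1.80 and 3.56. Krt1 and Tgm3 missed the threshold without either Ovol1 KO array (adjusted p 0.0541 and 0.0524 for Krt1, 0.087 and 0.085 for Tgm3) and from the 4 compared arrays, Tgm3 also without the variance trend (0.0524), and Lor missed it without DKO 2 (0.0704). The mean log2 level over this list was 10.04 to 10.25 in control, 10.0 to 10.18 in Ovol1 KO, and 11.52 to 11.71 in DKO. On Ovol1 KO 1 and 2, where Skint3 lay at 6.66 and 5.23, Krt1 lay at 8.97 and 9.27 and Lor at 10.35 and 9.87. Of 10 basal genes 1 rose, Krt15 (log2 fold change 4.06), 1 fell, the integrin gene Itgb4 (-0.79), and 8 missed the threshold, beside the same shares of all genes. Krt15 lost its call without DKO 1 (adjusted p = 0.162) or DKO 2 (adjusted p = 0.0843), and Itgb4 without any single control or DKO array (adjusted p from 0.0587 to 0.164) and without the variance trend (0.0651). With the Xist covariate, each signal, suprabasal and basal gene named here as risen or fallen in DKO against control missed the threshold, but 8 genes of the whole array were called in that fit. Skint3 was among them (5.20, adjusted p = 0.0459). The fold changes of Il33 (3.60), Pou2f3 (4.52), Krt10 (3.95), Krt1 (3.88) and Lor (2.43) stayed close to or above those without the covariate, and those of Il18 (0.83), Il1a (-2.57) and Krt15 (2.07) were smaller. The part of these differences in the Skint values was not tested, and a bulk array cannot tell more cells of a kind from more RNA per cell.

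Markers of the cells with which Skint proteins are usually discussed did not pass the test. Over all genes 3.2% were called in DKO against control and 2888 of 19938 had an unadjusted p below 0.05. Of 15 measured markers of epidermal T cells 0 passed in DKO against control by limma, 1 had an unadjusted p below 0.05, and the median was 0.01. The 1 was Thy1, also a fibroblast gene, with a log2 fold change of 2.11 (adjusted p = 0.179). Cd3e lay at 7.79 and 7.81 in control and 7.75 and 8.16 in DKO, and the mean over the list was 7.0 to 7.07 in control and 7.12 to 7.30 in DKO. Of 12 Langerhans cell and myeloid markers 0 passed, with 0 at an unadjusted p below 0.05, and their mean was 7.39 to 7.41 in control and 7.32 to 7.43 in DKO. Of 7 thymic epithelial markers 0 passed and 2 had an unadjusted p below 0.05, Ly75 at -0.89 (adjusted p = 0.0997) and Foxn1 at 0.98 (adjusted p = 0.257). Of 8 fibroblast markers 1 fell, Pdgfra (log2 fold change -1.06), and 7 did not pass. The fibroblast list as a whole did not fall. Its median was 0.19, and its mean was 8.14 to 8.17 in control and 8.37 to 8.7 in DKO. Of 10 melanocyte markers 1 fell, Kit (-1.43), and 9 did not pass. Kit lay at 8.07 and 7.7 in control, 8.6 and 8.58 in Ovol1 KO, and 6.78 and 6.13 in DKO. Pdgfra lost its call without control 1, DKO 1 or DKO 2 (adjusted p from 0.106 to 0.164), and Kit without control 1, DKO 2 or either Ovol1 KO array (adjusted p from 0.0693 to 0.114) and from the 4 compared arrays alone (0.068). The mean over the melanocyte list went with the replicate number. It was 8.80 on control 1 and 6.94 on control 2, 9.11 and 7.01 on the Ovol1 KO arrays, and 7.73 and 6.76 on the DKO arrays, and its part in the Skint values was not tested. Without a detection call these levels do not tell whether such cells were present.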

How the data were processed

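Intensities of 35556 probe sets on 6 arrays, 1 linear intensity per probe set and array, were used as deposited by the authors. Affymetrix Expression Console 1.1.1 and PLIER 2.0 are listed in the submitters' processing notes. How background, normalization and filters were set is not given in the sources used here, and there is no detection call. An offset of 16 was added, values were log2-transformed and, since quartiles differed by up to 0.218 between arrays, quantile-normalized. Probe sets with 1 symbol (21789) gave 19938 genes, by the brightest probe set. limma 3.58.1 in R 4.3.3 fitted a mean per group over the 6 arrays, with a variance trend, 3 residual and 3.89 prior degrees of freedom, and Benjamini-Hochberg adjustment over the 19938 genes, with calls at adjusted p below 0.05. The spread is thus shared over the 3 groups. The labels call the arrays biological replicates, and their number limits the precision. The fit was tested on simulated data.

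The genes and lists were chosen with earlier results of these data known. Named were all measured Skint genes, 5 genes on each side of the cluster, up to 6 called members per list (else the 2 smallest p), and the 6 genes closest to Skint3, predicted genes left out. Cd3e, Krt5, Krt14, Xist and the Ovol genes serve as checks. The alternatives were offsets of 1 and 64, values as deposited, the dimmest 30% left out, no variance trend, the mean over probe sets, the 4 compared arrays, the replicate number as a block, Xist as a covariate, arrays of like Xist level, and each array left out.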

Additional observations from a re-analysis of the deposited data

How the results depend on the processing

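All measured Skint genes fell among the dimmest 30% of genes, so the setting that left these out gave no Skint value. In DKO against control the number of called members, 2, was 3 with the values as deposited, 1 with the Xist covariate and between 0 and 2 when any single array was dropped. In DKO against Ovol1 KO the number, 1, was 2 with an offset of 64, with the values as deposited and from the 4 compared arrays, and between 0 and 2 when any single array was dropped. In Ovol1 KO against control it was 0 in all settings. The log2 fold changes of Skint3, Skint4 and Skint10 kept their sign in both comparisons with DKO. The Xist covariate rests almost wholly on the 2 Ovol1 KO arrays, which differ in replicate number too.

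The replicate numbers were not shown to pair the arrays. The differences between replicates 1 and 2 correlated across genes at 0.687 between control and Ovol1 KO, 0.151 between control and DKO, and 0.0875 between Ovol1 KO and DKO. With the replicate number as a block, 2 members were called in DKO against Ovol1 KO, as Skint4 passed (limma adjusted p = 0.0435), and the calls over all genes in DKO against control went from 188 higher and 451 lower to 301 and 768. The block changed no other call of a Skint gene, and Il1a lost its call in DKO against control (adjusted p = 0.052).

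Small differences that were never called changed sign, and the cause was not tested. With the values as deposited, Skint2 stood at 0.036 in DKO against control, and in Ovol1 KO against control Skint2 stood at 0.13, Skint7 at 0.030, Skint9 at 0.11, Skint10 at 0.0083 and Skint11 at 0.064. With the Xist covariate, Skint7 stood at -0.39 in DKO against control and -0.088 against Ovol1 KO, and Skint4 at -0.068 in Ovol1 KO against control. When any single array was dropped, DKO against control ran from -0.089 to 0.011 for Skint2, -0.27 to 0.55 for Skint7 and -0.25 to 0.043 for Skint9. Ovol1 KO against control ran from -0.047 to 0.039 for Skint2, -0.19 to 1.24 for Skint3, -0.077 to 0.45 for Skint4, -0.30 to 0.20 for Skint7, -0.25 to 0.21 for Skint9 and -0.28 to 0.035 for Skint10. DKO against Ovol1 KO ran from -0.085 to 0.015 for Skint2, -0.22 to 0.60 for Skint7 and -0.32 to 0.14 for Skint9.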

Other observations

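Vtcn1 and Cd1d1, whose products act on T cells, were chosen after their values were seen. They differed by more than 1 log2 unit without passing the test. The number of genes looked through is not given here. Vtcn1, an inhibitory ligand of the B7 family, lay at 9.42 and 8.11 in control, 9.38 and 8.80 in Ovol1 KO, and 7.16 and 6.49 in DKO, with a log2 fold change of -1.94 in DKO against control (limma adjusted p = 0.0859). Cd1d1, which encodes a lipid-presenting molecule, lay at 7.06 and 6.44, then 6.75 and 6.85, then 8.20 and 7.47, with a log2 fold change of 1.09 (adjusted p = 0.133). For both genes the DKO and control arrays did not overlap, which is common here: both DKO arrays lay above both control arrays for 23.1% of all genes and below them for 21.5%.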
